A study of Mus musculus with 15 samples.

Results

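The DNA replication genes described here are 41 genes whose products license replication origins, unwind and copy DNA, load the sliding clamp, join Okazaki fragments, supply nucleotides and rebuild chromatin behind the fork. They were chosen by name, with earlier results of these data known. By role, 10 were genes of licensing, 6 of helicase activation, 8 of polymerases and primase and 6 of the clamp and clamp loader. Another 2 were genes of Okazaki fragment joining, 5 of nucleotide supply and 4 of chromatin and histone supply. All 41 passed the filter on low counts, among 14968 genes tested and 28797 genes with any count. Estimated counts per gene and library ran from 12 for Pole2 to 3315 for Pcna.

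In G1 the origin recognition complex, CDC6 and CDT1 load the MCM2-7 ring onto DNA, and in S phase CDC45 and GINS turn this ring into the active helicase. Polymerase alpha-primase lays down primers, polymerases delta and epsilon extend them, and PCNA, loaded by replication factor C, holds the polymerases and the flap nuclease on DNA. In the small intestine, cells that replicate DNA are mostly the stem and transit-amplifying cells of the crypts, while villus cells have left the cell cycle.

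RNA was sequenced from jejunal epithelial isolates of CC027/GeniUnc mice, an inbred Collaborative Cross strain, with 3 libraries in each of 5 groups. The PBS mice were given PBS by gavage at every sensitization visit and no challenge. The sensitized mice, here called Sensitized, were given 2 mg of crude peanut extract weekly for 3 weeks and 5 mg in week 4, and were not challenged. The challenged mice were sensitized in the same way, then given 12 mg of peanut extract by gavage, and were killed after 30, 60 or 120 min. Age and sex of the mice are not given in the sources used here. Epithelium was shaken from a 4 cm length of jejunum, starting 6 cm from the pylorus, after 75 min in a buffer with EDTA (2 mM) and DTT (0.5 mM), so crypt and villus cells were not separated. The titles carry a different number for each library, and these were read as 15 mice; if they were not, the p-values measure only the spread between these libraries. No group received a gavage without peanut after sensitization in the data analysed here, so time since gavage and peanut challenge cannot be told apart.

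The E2F motif, through which E2F factors are known to switch on S-phase genes, was looked for in the promoters because it is a sequence that replication genes are known for. Promoter windows of 250 bases upstream of the RefSeq start (GRCm38.p6) were found for 34 of the 41 genes, in 40 windows. Taken as TTTCCCGC, TTTCGCGC, TTTGCCGC or TTTGGCGC on either strand, the motif lay in windows of 9 of those 34 genes (26.5%): Orc1, Cdc6, Mcm5, Mcm6, Mcm7, Gins3, Pola1, Rfc3 and Uhrf1. The same letters lay in 3.75% of the 10700 tested genes with a window (401 genes) and in 1 of 20 mitosis genes (5%). CCAAT was in 61.8% of the replication genes, 85% of the mitosis genes and 40.4% of all tested genes, and TTTGAA, the core of the cell cycle homology region, was in 14.7%, 40% and 13.4%, each on either strand. The windows of the replication genes had a median GC content of 60.4%, against 59.2% for all tested genes. A match shows only that the letters are present. The stretches of 120 bases shown are from 3 of the 9 genes, those in which the stretch lies wholly upstream of the gene in both RefSeq and GENCODE. The sequences are those of RefSeq, GRCm38.p6, 5′ to 3′ on the strand of the gene, with each E2F match in capitals. The Mcm5 stretch is chr8:75109336-75109455 on the plus strand, the Mcm6 stretch is chr1:128359716-128359835 on the minus strand, and the Pola1 stretch is chrX:93632194-93632313 on the minus strand.
Mcm5: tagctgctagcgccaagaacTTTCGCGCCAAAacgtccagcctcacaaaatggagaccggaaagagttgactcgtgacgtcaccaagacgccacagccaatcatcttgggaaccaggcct
Mcm6: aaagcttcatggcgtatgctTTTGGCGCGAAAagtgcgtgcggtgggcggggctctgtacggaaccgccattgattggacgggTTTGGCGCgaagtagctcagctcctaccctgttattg
Pola1: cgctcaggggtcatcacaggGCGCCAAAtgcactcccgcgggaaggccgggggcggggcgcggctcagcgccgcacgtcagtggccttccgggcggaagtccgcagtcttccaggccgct
In Mcm5, the run of capitals holds 2 overlapping matches, 1 on each strand. The Mcm6 stretch has such a run near its 5′ end and a further match of 8 bases closer to the start. Pola1 has a single match, on the opposite strand.

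No replication gene passed the test in any comparison. With edgeR's quasi-likelihood test, adjusted over all genes at 0.05, 0 of 41 were called in Sensitized against PBS and at 30 min against Sensitized, where 0% of all genes were called, and 0 of 41 at 60 min, where 0.00668% of all genes (1 gene) were. At 120 min against Sensitized 0 of 41 were called beside 1.26% of all genes (188), and over the 5 groups tested jointly 0 of 41 beside 0.347% (52). Between times, the count was 0 of 41 at 60 min against 30 min (0% of all genes), at 120 min against 60 min (1.12%) and at 120 min against 30 min (1.01%). Without adjustment, p was under 0.05 for 0 genes in Sensitized against PBS, for 7 (all higher) at 30 min, for 6 (5 higher, 1 lower) at 60 min and for 4 (all higher) at 120 min, against 1.42%, 5.04%, 12.6% and 17.7% of all genes. limma-voom called 0 of 41 in every comparison. DESeq2 called Fen1 at 120 min against Sensitized (adjusted p = 0.0343), where it called 6.69% of genes with an adjusted p, and Pold1 at 120 min against 60 min (adjusted p = 0.0427), where it called 7.88%.

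The differences were small and mostly in 1 direction within a comparison. The median log2 fold change of the 41 genes was -0.15 in Sensitized against PBS (10 above 0, 31 below), 0.34 at 30 min against Sensitized (34 above, 7 below), 0.19 at 60 min (29 above, 12 below) and 0.28 at 120 min (36 above, 5 below). The medians of all genes tested in these comparisons were 0.01, 0.01, -0.02 and -0.01. The comparisons after challenge share the Sensitized libraries, whose 3 values also enter the comparison with PBS, so the 4 medians are not independent. Set against the PBS mice in the same fit, the medians were 0.15 at 30 min, 0.04 at 60 min and 0.13 at 120 min, with 34, 23 and 32 of 41 genes above 0. In these bulk isolates, fewer replicating cells and less RNA per cell cannot be told apart.

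The size that could have been seen was limited by the spread between libraries. The standard error of a log2 fold change had a median of 0.21 over the 41 genes and ran from 0.12 for Slbp to 0.49 for Pole2. The 95% interval lay within a 2-fold change in either direction for 37 of 41 genes in Sensitized against PBS, for 31 at 30 min, 39 at 60 min and 33 at 120 min. For Gins3 and Pole2 it reached past a 2-fold change in each of these comparisons, so changes of that size were not excluded for them.

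**Figure D1:**
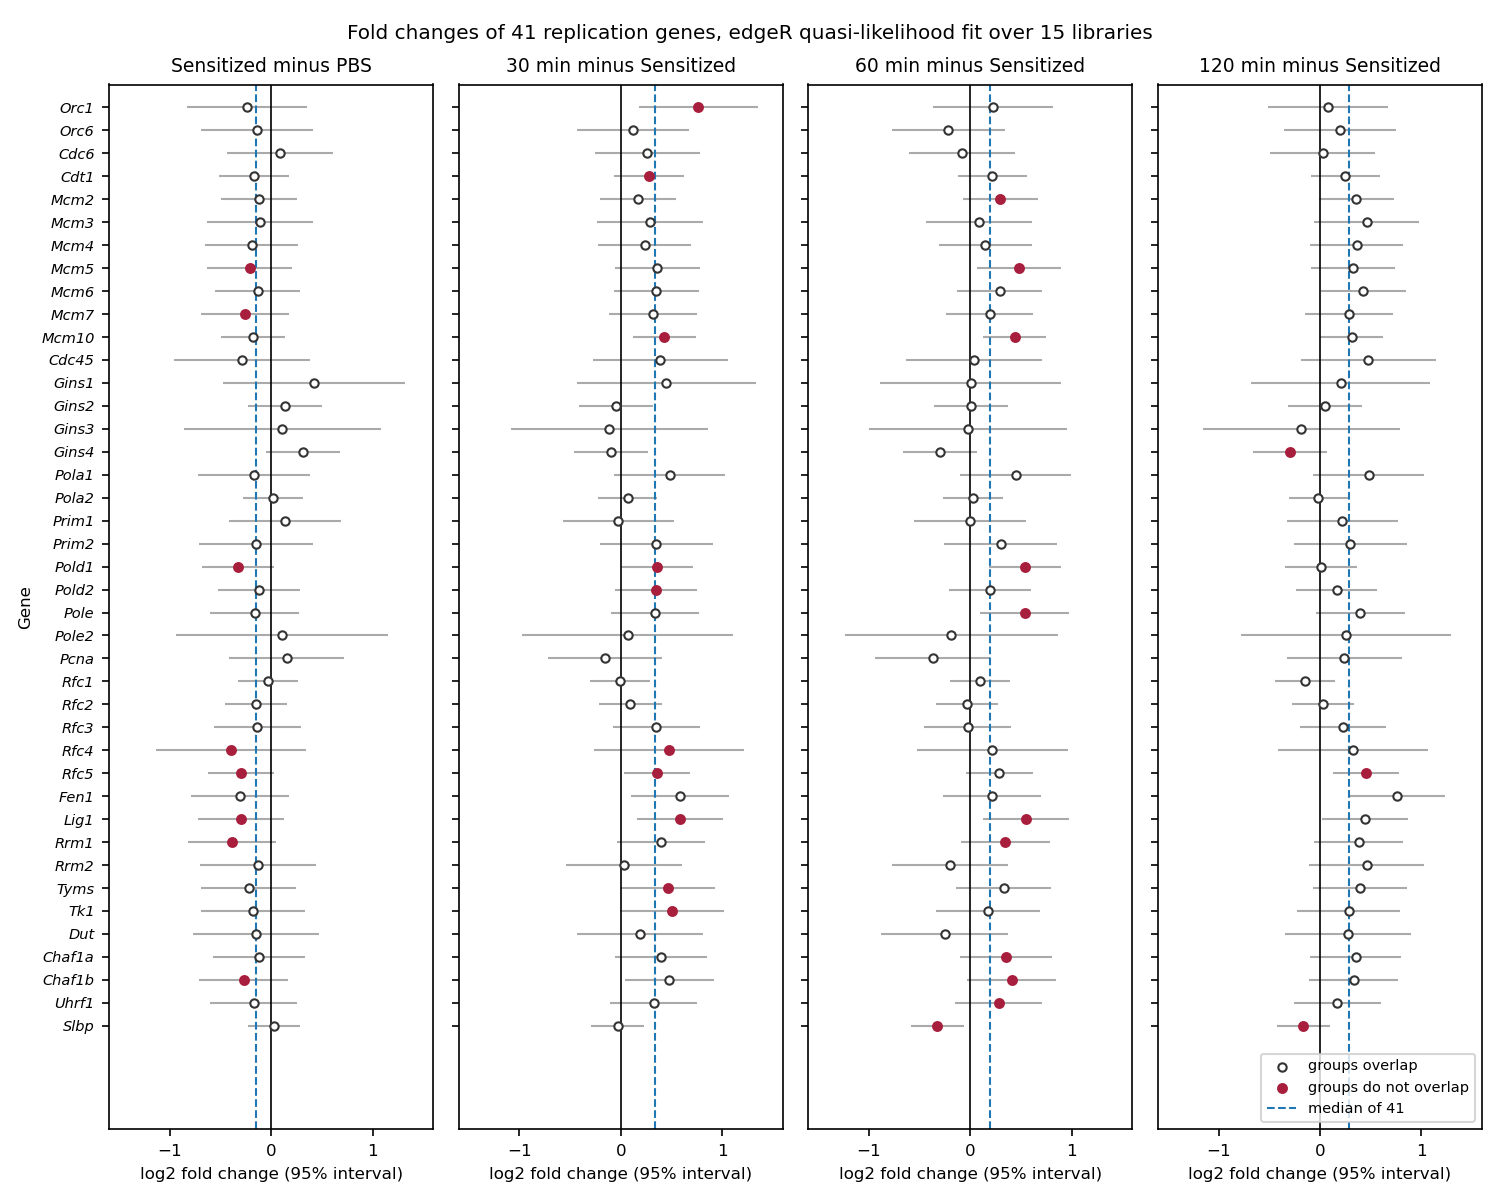
The horizontal axes give the log2 fold change of each of the 41 replication genes (rows) with its 95% interval in 4 comparisons, filled points mark genes whose 3 libraries in 1 group all lay above or below the 3 of the other, and the dashed line is the median of the 41. The medians lie at -0.15, 0.34, 0.19 and 0.28, and filled points number 8, 10, 11 and 3.

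Groups that did not overlap numbered 8 in Sensitized against PBS, all lower in Sensitized (Chaf1b, Lig1, Mcm5, Mcm7, Pold1, Rfc4, Rfc5 and Rrm1), which is 8 of 41 against 7.98% of all genes. At 30 min 10 genes lay wholly above Sensitized (Cdt1, Lig1, Mcm10, Orc1, Pold1, Pold2, Rfc4, Rfc5, Tk1 and Tyms), against 14.3% of all genes in either direction. At 60 min 10 lay wholly above (Chaf1a, Chaf1b, Lig1, Mcm2, Mcm5, Mcm10, Pold1, Pole, Rrm1 and Uhrf1) and Slbp wholly below, against 18.5%. At 120 min only Rfc5 lay wholly above and Gins4 and Slbp wholly below, against 26.5% of all genes.

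A few libraries stood apart from the rest. The 120 min replicate 3 was the highest of the 15 libraries for 24 of the 41 genes, with a summed level of 1398 CPM (counts scaled to library size by TMM, not corrected for length), against 823 to 1216 CPM in the other 14. The 30 min replicate 2 was the highest for 9 genes, Sensitized replicate 3 was the lowest for 15 genes and 60 min replicate 3 was the lowest for 13. Within their own groups, 120 min replicate 3 was the highest for 35 genes, and 30 min replicate 2 for 32, while 30 min replicate 3 was the lowest for 34, 60 min replicate 3 for 32 and Sensitized replicate 3 for 29. The PBS libraries lay closest together, with mean log2 CPM over the 41 genes of 4.12, 4.14 and 4.11. Sensitized libraries stood at 4.12, 4.02 and 3.87, those at 30 min at 4.32, 4.44 and 4.06, those at 60 min at 4.33, 4.20 and 3.84, and those at 120 min at 4.09, 3.94 and 4.61. Each group after challenge thus had 1 library or more inside or below the range of the Sensitized group.

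Leaving out 120 min replicate 3 took the median at 120 min against Sensitized from 0.28 to 0.08, with 27 of 41 genes above 0. Leaving out 30 min replicate 2 took the median at 30 min to 0.19, and leaving out 60 min replicate 1 took that at 60 min to 0.07. Without Sensitized replicate 3, the median of Sensitized against PBS was -0.08. A further fit left out 3 libraries that stood apart, chosen after the data were seen. They were 30 min replicate 1, 60 min replicate 3 and 120 min replicate 3. Of these, 30 min replicate 1 stood apart in markers of stroma and endothelium, and was the highest library for only 1 replication gene. The 30 min replicate 2 and Sensitized replicate 3 were kept. In this fit 0 of 41 genes were called in every comparison, and the medians against Sensitized were 0.29, 0.29 and 0.09.

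**Figure D2:**
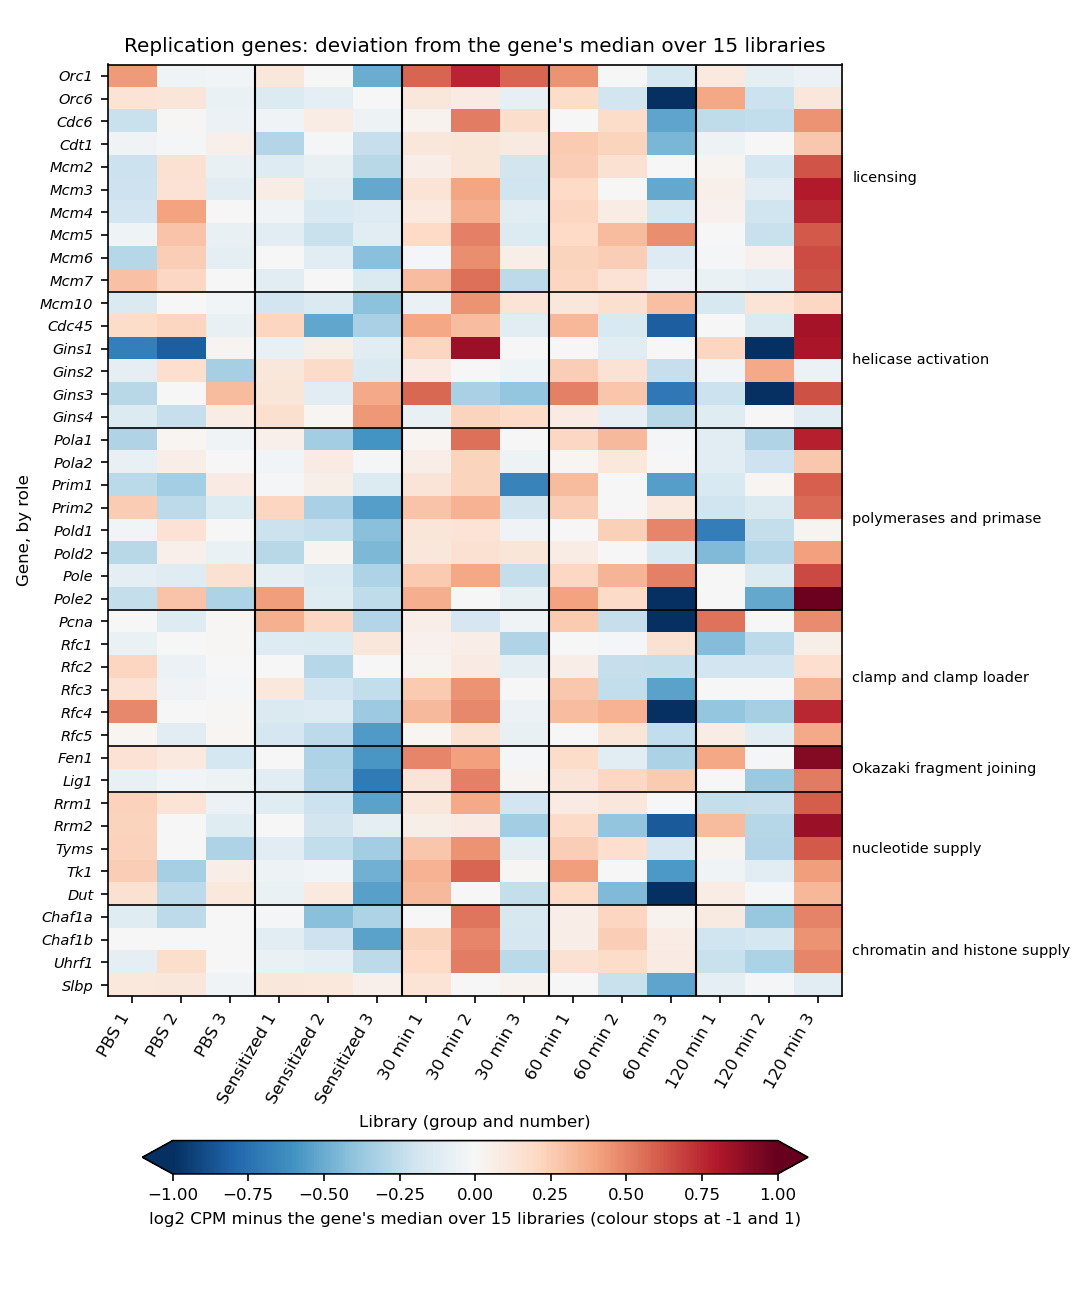
Each cell of the map gives a gene's log2 CPM in a library minus its median over the 15 libraries, with the 41 genes in rows by role and the libraries in columns by group. The 120 min replicate 3 column is the reddest (highest for 24 genes), and the Sensitized replicate 3 and 60 min replicate 3 columns hold most of the lowest values (15 and 13 genes).

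The 15 libraries held 15661513 to 22691349 estimated counts, of which mitochondrially encoded transcripts took 13.8% to 33.2%, the most in 60 min replicate 3. The labelled cell type was checked against 10 epithelial markers such as Krt8 and Vil1, whose sum was high in all 15 (10392 to 14559 CPM). The 30 min replicate 1 stood apart in the markers of stroma and endothelium (7 of 13 tested), with a sum of 187 CPM against 6.12 to 22.7 CPM elsewhere, and Col1a1, a fibroblast collagen, was at 31.6 CPM there, at 0 in 4 libraries and at 1.504 CPM or below in the rest.

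Origin licensing genes lay lower in Sensitized than in PBS mice (median log2 fold change -0.16, 1 of 10 genes above 0) and higher than Sensitized after challenge, by a median of 0.29 at 30 min (10 of 10 above 0), 0.20 at 60 min (8 of 10) and 0.31 at 120 min (10 of 10), with 0 of 10 called each time. Orc1, an ATP-binding subunit of the origin recognition complex that is made anew in each cycle, gave the largest fold change of the 41 at 30 min. Orc1 stood at 3.59, 2.55 and 2.58 CPM in the 3 PBS libraries, 2.87, 2.64 and 1.84 in Sensitized, 4.01, 4.55 and 3.99 after 30 min, 3.64, 2.63 and 2.33 after 60 min and 2.83, 2.45 and 2.52 after 120 min. All 3 libraries at 30 min lay above every other library. The log2 fold change of Orc1 was 0.77 ± 0.28 (SE) at 30 min against Sensitized (adjusted p = 0.941), -0.54 ± 0.28 (SE) at 60 min against 30 min (adjusted p = 0.863) and -0.68 ± 0.28 (SE) at 120 min against 30 min (adjusted p = 0.213), so none passed. Counts behind these values were low, 26 to 100 per library.

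Cdc6 and Cdt1 encode the proteins that bring the MCM ring to the origin. Cdc6 had values of 5.22, 6.13 and 5.83 CPM in PBS, 5.95, 6.41 and 5.86 in Sensitized, 6.26, 8.71 and 6.89 after 30 min, 6.09, 6.93 and 4.20 after 60 min and 5.09, 5.12 and 8.34 after 120 min. Each group after challenge overlapped Sensitized, while the 30 min libraries lay above all PBS libraries. The highest values belonged to 1 library at 30 min and 1 at 120 min. For Cdt1 the CPM values were 29.9, 30.1 and 31.7 in PBS mice, 24.9, 30.4 and 25.99 in Sensitized mice, 33.1, 33.3 and 32.5 after 30 min, 36.6, 35.7 and 22.2 after 60 min and 29.4, 30.6 and 36.8 after 120 min. The 30 min libraries of Cdt1 were close together and all above Sensitized, while 60 min replicate 3 was the lowest of the 15. Log2 fold changes against Sensitized were 0.26 ± 0.24 (SE), -0.08 ± 0.25 (SE) and 0.03 ± 0.24 (SE) for Cdc6 and 0.28 ± 0.16 (SE), 0.22 ± 0.16 (SE) and 0.25 ± 0.16 (SE) for Cdt1 at 30, 60 and 120 min. Cdt1 is at 122568015 to 122573554 on the plus strand of chromosome 8 (GRCm38) and overlaps the read-through model Gm20388 on the same strand, so its reads may be divided between the models.

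Of the MCM2-7 helicase genes, Mcm2, Mcm5 and Mcm6 were followed in every library. Mcm2 stood at 33.8, 43.7 and 37.4 CPM in the 3 PBS libraries, 35.9, 37.2 and 32.4 in Sensitized, 41.2, 42.8 and 34.7 after 30 min, 46.6, 43.7 and 39.3 after 60 min and 39.97, 34.8 and 60.8 after 120 min. Mcm5 had values of 37.7, 47.3 and 36.9 CPM in PBS, 35.9, 33.3 and 35.9 in Sensitized, 44.6, 55.1 and 35.2 after 30 min, 44.5, 48.4 and 53.6 after 60 min and 38.8, 33.3 and 59.4 after 120 min. For Mcm6 the CPM values were 57.96, 83.5 and 65.9 in PBS mice, 70.5, 65.4 and 52.8 in Sensitized mice, 69.9, 97.3 and 73.6 after 30 min, 82.2, 83.8 and 64.5 after 60 min and 70.2, 72.7 and 111 after 120 min. In all 3, 120 min replicate 3 was the highest library, and the other 2 libraries at 120 min were within or next to the Sensitized range. At 60 min all libraries of Mcm2 and Mcm5 lay above all Sensitized libraries. The log2 fold change of Mcm5 at 60 min was 0.48 ± 0.20 (SE, adjusted p = 0.334), that of Mcm2 0.30 ± 0.18 (SE, adjusted p = 0.501), and that of Mcm6 at 120 min 0.43 ± 0.20 (SE, adjusted p = 0.269). Without 120 min replicate 3, the last value was 0.18.

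Helicase activation gave no common direction. Its 6 genes had median log2 fold changes of 0.12 in Sensitized against PBS, 0.17 at 30 min, 0.00 at 60 min and 0.13 at 120 min, with 0 of 6 called. Mcm10, which helps the loaded helicase to start, was the member of this role with the smallest p at 30 and 60 min. Mcm10 stood at 19.3, 21.4 and 20.96 CPM in the 3 PBS libraries, 18.8, 19.3 and 16.1 in Sensitized, 20.5, 29.2 and 23.6 after 30 min, 23.1, 23.95 and 26.4 after 60 min and 19.2, 23.6 and 24.7 after 120 min. Every library at 30 and 60 min was above every Sensitized library, and none was below the PBS range. Its log2 fold changes against Sensitized were 0.43 ± 0.15 (SE) at 30 min (adjusted p = 0.941), 0.44 ± 0.15 (SE) at 60 min (adjusted p = 0.287) and 0.31 ± 0.15 (SE) at 120 min (adjusted p = 0.285).

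The GINS subunits, which bridge the helicase to polymerase epsilon, went against the median of the 41 genes: 4 of 4 were above 0 in Sensitized against PBS, where 31 of 41 genes were below 0, and Gins2, Gins3 and Gins4 were below 0 at 30 min, where 34 of 41 were above. Gins4 had values of 8.47, 7.94 and 9.81 CPM in PBS, 10.5, 9.48 and 12.6 in Sensitized, 8.86, 10.9 and 10.7 after 30 min, 9.89, 8.81 and 7.66 after 60 min and 8.57, 9.33 and 8.65 after 120 min. Gins4 was thus highest in Sensitized replicate 3, the library in which 15 other replication genes had their lowest value, and its 120 min libraries were all below Sensitized. Log2 fold changes of Gins4 were 0.31 ± 0.17 (SE) in Sensitized against PBS (adjusted p = 1) and -0.29 ± 0.17 (SE) at 120 min against Sensitized (adjusted p = 0.391). Gins1 had the largest coefficient of variation over the 15 libraries (37.7%), with 24 to 127 counts, where counting error alone would give 12.7%.

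DNA polymerases and primase had median log2 fold changes of -0.14 in Sensitized against PBS, 0.34 at 30 min, 0.25 at 60 min and 0.24 at 120 min, and 0 of 8 were called. Pold1, the catalytic subunit of polymerase delta, had the smallest p of the 41 genes in Sensitized against PBS, at 60 min against Sensitized and at 120 min against 60 min. For Pold1 the CPM values were 26.9, 30.4 and 27.5 in PBS mice, 23.7, 23.4 and 20.6 in Sensitized mice, 29.96, 30.2 and 26.8 after 30 min, 27.5, 32.4 and 38.7 after 60 min and 16.95, 23.3 and 28.02 after 120 min. The 3 Sensitized libraries were below all PBS, 30 min and 60 min libraries, and 60 min replicate 3 was the highest of all, unlike for most other members. Log2 fold changes of Pold1 were -0.33 ± 0.17 (SE) in Sensitized against PBS (adjusted p = 1), 0.54 ± 0.17 (SE) at 60 min against Sensitized (adjusted p = 0.254), 0.01 ± 0.17 (SE) at 120 min against Sensitized (adjusted p = 0.982) and -0.53 ± 0.17 (SE) at 120 min against 60 min (adjusted p = 0.115). At 120 min against 30 min the value was -0.35 ± 0.17 (SE, adjusted p = 0.29). Pola2, the regulatory subunit of polymerase alpha, was the steadiest of the 41, with a coefficient of variation of 8.53%, where counting error alone would give 5.32%.

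In the clamp and clamp loader, medians of the log2 fold changes were -0.14, 0.22, 0.04 and 0.24 in the same order, and 0 of 6 were called. Pcna, the sliding clamp, had the largest counts of the set. Pcna stood at 107, 97.7 and 108 CPM in the 3 PBS libraries, 136, 123 and 87.3 in Sensitized, 112, 95.4 and 104 after 30 min, 128, 91.3 and 48.95 after 60 min and 156, 107 and 148 after 120 min. The 60 min libraries spread over a range that took in the lowest value of all, in replicate 3, and the groups overlapped. Among the comparisons with PBS or Sensitized, Pcna went against the median of the 41 genes in 3, and it was called in none of them. Its log2 fold changes there were 0.15 ± 0.26 (SE) in Sensitized against PBS, -0.16 ± 0.26 (SE) at 30 min and -0.37 ± 0.26 (SE) at 60 min. At 120 min against 60 min Pcna gave 0.61 ± 0.26 (SE, adjusted p = 0.22), and 0.30 without 60 min replicate 3. At 120 min against 30 min it gave 0.40 ± 0.26 (SE, adjusted p = 0.459). In this last comparison the median of the 41 genes was -0.04, so Pcna went against it there too.

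Rfc5 and Rfc3 are small subunits of replication factor C, the clamp loader. Rfc5 had values of 21.1, 19.3 and 21.1 CPM in PBS, 18.5, 17.3 and 14.1 in Sensitized, 21.1, 23.2 and 19.7 after 30 min, 20.8, 22.6 and 17.5 after 60 min and 21.9, 19.4 and 27.1 after 120 min. All 3 Sensitized libraries of Rfc5 were below the PBS, 30 min and 120 min libraries. Log2 fold changes of Rfc5 were -0.30 ± 0.15 (SE) in Sensitized against PBS (adjusted p = 1), 0.36 ± 0.15 (SE) at 30 min (adjusted p = 0.956) and 0.45 ± 0.15 (SE) at 120 min (adjusted p = 0.146). With offsets for transcript length these turned to 0.09 in Sensitized against PBS and -0.07 at 120 min. The share of Rfc5 TPM on its annotated non-coding transcripts moved with this, with group means of 19.6% in PBS, 43% in Sensitized and 15.6% at 120 min, and its part in the result was not tested. For Rfc3 the CPM values were 13.5, 11.9 and 12.1 in PBS mice, 13.1, 10.7 and 10.2 in Sensitized mice, 14.6, 16.7 and 12.2 after 30 min, 14.7, 10.3 and 8.39 after 60 min and 12.2, 12.2 and 15.5 after 120 min. Rfc3 overlapped between all groups, and its log2 fold change at 60 min against 30 min was -0.38 ± 0.20 (SE, adjusted p = 0.863).

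Okazaki fragment joining is covered by Fen1, the nuclease that trims the flap, and Lig1, the ligase that seals the nick. Fen1 stood at 22.2, 21.5 and 17.8 CPM in the 3 PBS libraries, 20.04, 16.2 and 13.4 in Sensitized, 28.1, 26.7 and 19.7 after 30 min, 22.8, 18.5 and 16.1 after 60 min and 26.2, 19.8 and 37.9 after 120 min. Fen1 was highest in 120 min replicate 3 and lowest in Sensitized replicate 3, and the 120 min libraries overlapped the Sensitized ones by 1 value. The log2 fold change of Fen1 at 120 min against Sensitized was 0.76 ± 0.23 (SE), the largest of the 41 in that comparison (adjusted p = 0.105). At 30 min against Sensitized Fen1 gave 0.59 ± 0.23 (SE, adjusted p = 0.941), at 60 min against 30 min -0.38 ± 0.23 (SE, adjusted p = 0.863), and at 120 min against 60 min 0.55 ± 0.23 (SE, adjusted p = 0.198). Fen1 was called at 120 min when 120 min replicate 2 was left out (0.94, adjusted p = 0.0468, beside 1.56% of all genes), and without 120 min replicate 3 its log2 fold change was 0.47. Fen1 overlaps Gm10143 and Tmem258 on the opposite strand, and the sources used here do not say whether the libraries keep strand.

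Lig1 had values of 31.7, 32.7 and 32.2 CPM in PBS, 30.9, 27.1 and 20.3 in Sensitized, 36.5, 47.3 and 33.95 after 30 min, 36.4, 38.5 and 39.96 after 60 min and 33.3, 25.8 and 47.7 after 120 min. Sensitized libraries of Lig1 lay below all PBS, 30 min and 60 min libraries, and the 3 PBS libraries were close together. The log2 fold change of Lig1 was -0.30 ± 0.20 (SE) in Sensitized against PBS (adjusted p = 1), and the values against Sensitized were 0.58 ± 0.20 (SE) at 30 min (adjusted p = 0.941), 0.55 ± 0.20 (SE) at 60 min (adjusted p = 0.304) and 0.44 ± 0.20 (SE) at 120 min (adjusted p = 0.253). Without 120 min replicate 3 the last was 0.17.

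Nucleotide supply had median log2 fold changes of -0.18, 0.40, 0.18 and 0.38 in the same 4 comparisons, with 0 of 5 genes above 0 in Sensitized against PBS, 5 of 5 at 30 min, 3 of 5 at 60 min and 5 of 5 at 120 min, and 0 of 5 called. Rrm1 and Rrm2 encode the subunits of ribonucleotide reductase, and Tyms the enzyme that makes thymidylate. For Rrm1 the CPM values were 51.9, 48.6 and 42.5 in PBS mice, 40.7, 38.02 and 30.5 in Sensitized mice, 47.9, 57.5 and 38.8 after 30 min, 46.9, 47.9 and 44.2 after 60 min and 37.5, 37.6 and 67.4 after 120 min. Rrm2 stood at 18.5, 15.8 and 14.6 CPM in the 3 PBS libraries, 15.8, 13.95 and 14.9 in Sensitized, 16.5, 16.7 and 12.4 after 30 min, 18.04, 12.03 and 8.79 after 60 min and 19.7, 12.96 and 28.9 after 120 min. Tyms had values of 20.2, 17.2 and 13.9 CPM in PBS, 15.9, 14.5 and 13.6 in Sensitized, 20.9, 23.6 and 16.2 after 30 min, 20.5, 19.4 and 15.3 after 60 min and 17.6, 14.1 and 26.4 after 120 min. For all 3 genes 120 min replicate 3 was the highest library, and for Rrm2 60 min replicate 3 was the lowest. Rrm1 gave -0.39 ± 0.21 (SE) in Sensitized against PBS (adjusted p = 1), where the groups did not overlap. Rrm2 gave 0.66 ± 0.27 (SE) at 120 min against 60 min (adjusted p = 0.194) and 0.43 ± 0.27 (SE) at 120 min against 30 min (adjusted p = 0.419), and Tyms 0.46 ± 0.22 (SE) at 30 min against Sensitized (adjusted p = 0.976). Without 60 min replicate 1, edgeR called 4 of the 41 genes at 120 min against 60 min (Dut, Pcna and Rrm2 higher and Pold1 lower) beside 7.46% of all genes, and without the 3 libraries that stood apart it called 0 of 41.

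In chromatin and histone supply, 0 of 4 genes were called. Uhrf1 brings the maintenance DNA methyltransferase to newly copied DNA. For Uhrf1 the CPM values were 49.2, 58.9 and 52.2 in PBS mice, 49.8, 48.7 and 43.5 in Sensitized mice, 59.96, 74.7 and 43.2 after 30 min, 58.03, 59.2 and 55.3 after 60 min and 44.6, 41.9 and 73.4 after 120 min. At 60 min the 3 libraries were close together and above Sensitized, whereas those at 30 and 120 min spread on both sides of it. Log2 fold changes of Uhrf1 against Sensitized were 0.32 ± 0.20 (SE), 0.28 ± 0.20 (SE) and 0.17 ± 0.20 (SE) at 30, 60 and 120 min. Slbp, which binds the stem-loop of histone mRNA, ran against the rest.

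Slbp stood at 40.6, 40.95 and 36.9 CPM in the 3 PBS libraries, 41, 40.6 and 39.1 in Sensitized, 41.5, 37.8 and 38.8 after 30 min, 37.8, 32.4 and 26.2 after 60 min and 35.4, 37.6 and 34.9 after 120 min. All libraries of Slbp at 60 and 120 min lay below all Sensitized libraries. Slbp gave -0.33 ± 0.12 (SE) at 60 min against Sensitized (adjusted p = 0.308) and -0.29 ± 0.12 (SE) at 60 min against 30 min (adjusted p = 0.863). Without 60 min replicate 3, its lowest library, these values were -0.19 and -0.17. Slbp was the member with the smallest standard error.

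**Figure D3:**
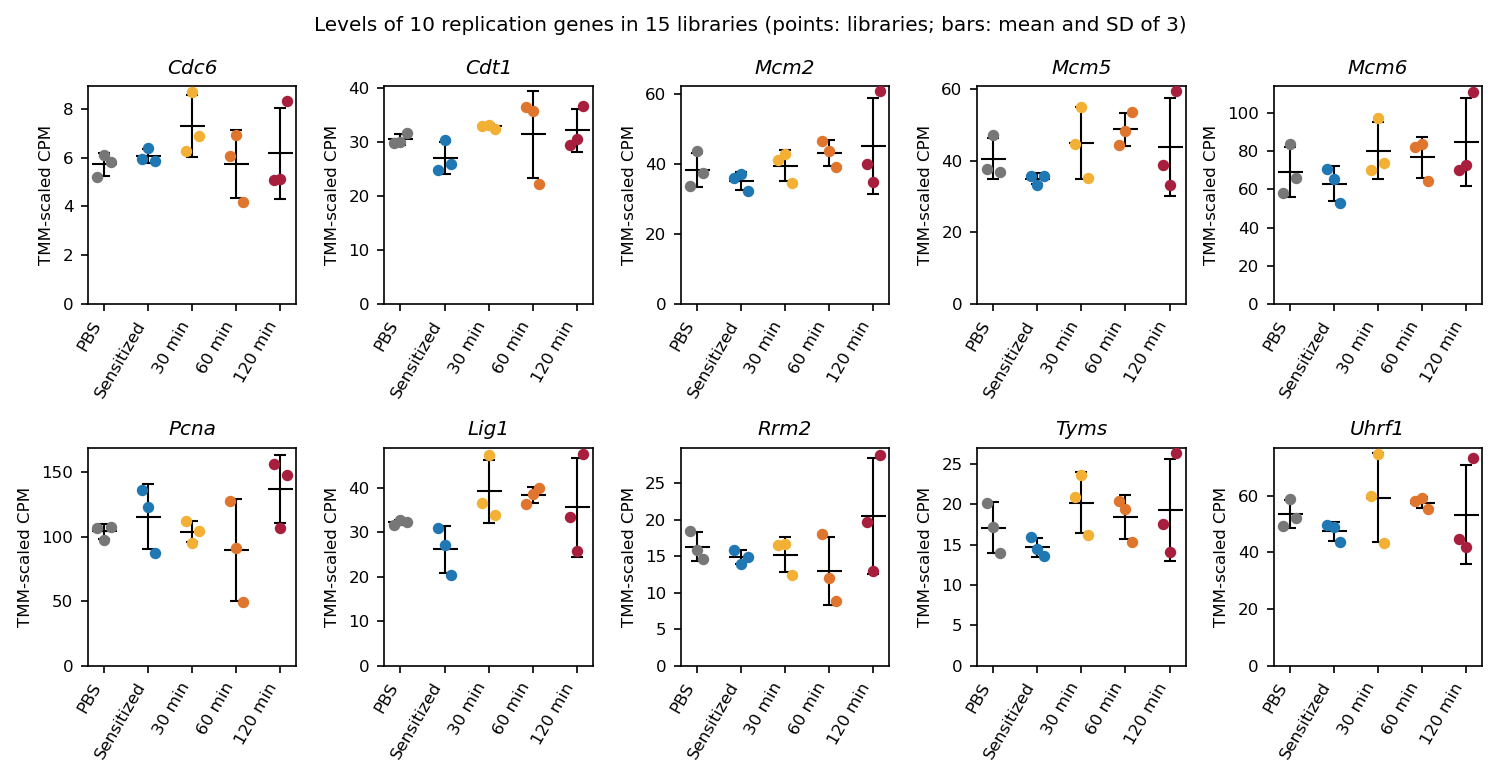
Points give the TMM-scaled CPM of 10 replication genes (vertical axes, from 0) in each of the 3 libraries of a group (horizontal axes), with bars for the mean and SD. The single highest point at 120 min is replicate 3 for all of them except Pcna, whose highest is replicate 1, and the lowest Pcna point is 60 min replicate 3 at 49.0 CPM.

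Levels were compared between genes only per length, in TPM within a library. Pcna had the highest median over the 15 libraries, 93.5 TPM (23.1 to 145), and Gins3 the lowest, 0.71 TPM (0.25 to 1.46). In MCM2-7, whose 6 proteins are present in equal numbers in the ring, the mRNAs were unequal: Mcm6 was the highest in 14 of 15 libraries, and exceeded Mcm4, the subunit with the lowest median, by a median of 2.45-fold (2.03 to 3.11 over libraries). Mcm4 itself was the lowest of the 6 in 5 of 15 libraries. In GINS the ratio of Gins4 to Gins3 was 10.3 (4.79 to 15.0), with Gins3 the lowest in 15 of 15 libraries. Prim1, the catalytic primase subunit, exceeded Pola1 by 3.26-fold (2.14 to 4.49). Rfc2 was the highest clamp loader subunit in 13 of 15 libraries, and a median of 2.57-fold above Rfc1 (1.54 to 3.31), but 86.8% of Rfc2 TPM was assigned to transcripts annotated as non-coding. Such transcripts also held 86.1% of Lig1 TPM and 69.1% of Tyms TPM, against 7.8% for Pcna and 0% for Fen1.

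Subunits of the MCM ring moved together from library to library. Over 15 libraries and 37 pairs of subunits within 4 complexes, Pearson's r of log2 CPM ran from 0.54 to 0.90 (median 0.78) for the 15 MCM2-7 pairs, and 14 of 15 passed a two-sided permutation test (100000 permutations, adjusted over the 37 pairs); by Spearman's rho (0.41 to 0.88) 12 of 15 did. Mcm2 and Mcm4 were the closest pair, with r = 0.90 (permutation p = 3e-05, adjusted p = 0.00037), rho = 0.84 (permutation p = 0.00016, adjusted p = 0.00296), and r = 0.81 without the 2 libraries farthest from the median. Without such libraries the r of the MCM pairs was between 0.25 and 0.82, the lowest for Mcm6 with Mcm7 and for Mcm3 with Mcm5, whose relation rests on those libraries. With the group means removed, r was 0.63 to 0.96, so the relation lay within groups as well. For GINS r ran from -0.39 to 0.46 and 0 of 6 pairs passed by either measure, for replication factor C from -0.08 to 0.78 with 5 of 10 passing, and for polymerase alpha-primase from 0.48 to 0.75 with 2 of 6. Libraries share a depth and a scaling factor across all genes, and Gins1 and Gins3 have few counts. The permutations took no account of the groups. Pairs of genes outside these complexes were not tested, so whether the MCM pairs differ from other gene pairs is not known.

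In 60 min replicate 3 the values went with transcript length. There the 21 replication genes at or under the median effective length of 2264 bases sat at a median of -0.53 on the log2 scale relative to their own medians, and the 20 longer genes at -0.01. Over the 41 genes, Spearman's rho between length and deviation was 0.63 in this library, 0.50 in 60 min replicate 2 and between -0.31 and 0.39 in the other 13. Over all 14968 genes rho was 0.35 and 0.36 in the same 2 libraries, with medians of -0.20 for shorter and 0.14 for longer genes in replicate 3. These are descriptions across genes, which are not independent replicates. This library also held the largest mitochondrial share, and its part in the result was not tested. The fit without 60 min replicate 1, which called 4 members at 120 min against 60 min, kept 60 min replicates 2 and 3. Of these members, Dut, Pcna and Rrm2 (higher) had median effective lengths of 1187, 1065 and 1823 bases, and Pold1 (lower) 3673. The part of length in those calls was not tested.

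**Figure D4:**
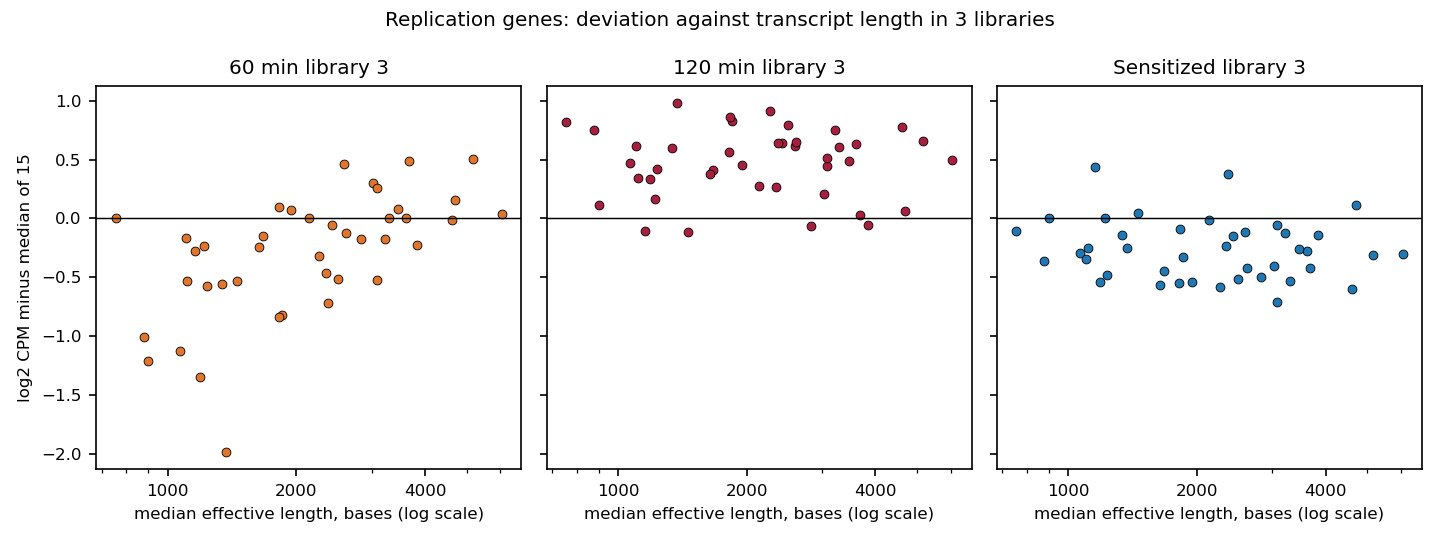
Each point is 1 of the 41 replication genes, with its median effective length in bases (log axis) against its log2 CPM minus its median over 15 libraries, in 60 min replicate 3, 120 min replicate 3 and Sensitized replicate 3. In the first panel the short genes lie lowest (rho = 0.63), whereas in the others the points lie high or low at all lengths (rho = 0.03 and -0.14).

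Further genes of the pathway, a list of 45 other licensing, replisome, nucleotide and chromatin factors, gave no call either: 0 of 45 were called in any of the 7 comparisons between 2 groups. Their median log2 fold change was -0.10 in Sensitized against PBS (9 above 0), 0.26 at 30 min (36 above 0), 0.07 at 60 min (27 above 0) and 0.19 at 120 min (34 above 0). Dbf4, the activating subunit of the CDC7 kinase that fires origins, had -0.62 ± 0.24 (SE) in Sensitized against PBS (adjusted p = 1) and 0.91 ± 0.23 (SE) at 120 min (adjusted p = 0.0674). Samhd1, which breaks down deoxynucleotides, had -0.64 ± 0.16 (SE) at 120 min (adjusted p = 0.0647), and its 3 libraries there (61.6, 60.4 and 52.4 CPM) were below all Sensitized ones (75.2, 77.4 and 120.1 CPM). Topbp1, a scaffold of origin firing, had 0.52 ± 0.16 (SE) at 30 min (adjusted p = 0.941), and Pold4, the small subunit of polymerase delta, -0.69 ± 0.18 (SE) at 60 min (adjusted p = 0.207).

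Of 15 regulators of S phase, Cdc25a, the phosphatase that activates CDK2, was the only one called at 120 min against Sensitized, a call that did not hold in most fits without 1 library. Cdc25a had values of 65.1, 84.6 and 70.3 CPM in PBS, 69.7, 66.6 and 59.7 in Sensitized, 67.9, 79.5 and 88.1 after 30 min, 82.2, 87.2 and 90.2 after 60 min and 89.4, 99.6 and 96.3 after 120 min. All 3 libraries at 120 min were above all Sensitized and PBS libraries, and its log2 fold change was 0.54 ± 0.12 (SE, adjusted p = 0.0441). It was not called in 10 of the 15 fits that left out 1 library (any Sensitized or 120 min library, PBS replicate 3, 30 min replicate 2 or 3, or 60 min replicate 2), with log2 fold changes of 0.48 to 0.58 over the 15 and an adjusted p of up to 0.213, nor with offsets for transcript length (adjusted p = 0.103), with PBS mice as the control (0.38, adjusted p = 0.123) or without the 3 libraries that stood apart (adjusted p = 0.0661). Cdkn1a, which encodes the CDK inhibitor p21, was also higher in all 3 libraries at 120 min, at 219, 284 and 200.2 CPM against 141, 165 and 148 CPM in Sensitized, without passing (0.63 ± 0.16 (SE), adjusted p = 0.0657).

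Mitosis genes, a list of 24 that marks cycling cells after S phase, showed the same directions with larger medians: -0.34 in Sensitized against PBS (0 of 24 above 0), then 0.63, 0.60 and 0.52 at 30, 60 and 120 min (24 of 24 above 0 each time). None of the 24 was called, with the lowest adjusted p at 0.0511 (Kif23, 120 min), and p was under 0.05 without adjustment for 6 lower, then 22, 15 and 15 higher. Kif23, a kinesin of the cytokinetic bridge, gave 0.84 ± 0.20 (SE) at 120 min, and Kif11, the kinesin that separates spindle poles, 0.89 ± 0.16 (SE) at 60 min (adjusted p = 0.175). The difference between the 2 lists was not tested.

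Markers of other cells in the isolates also differed between libraries. By the test used for the replication genes, 5 of 7 Paneth cell markers were called lower at 120 min against 60 min, and 5 against 30 min. Of 10 crypt stem cell markers, 1 was called lower at 120 min against 60 min. Of 10 epithelial markers, 1 was called higher at 120 min against Sensitized, 2 against 60 min and 1 against 30 min. Of all genes, 1.26%, 1.12% and 1.01% were called in these comparisons. No marker of the other cell types was called. Summed crypt stem cell markers (10 of 10 tested) ran from 898 to 1069 CPM in PBS, 711 to 1147 in Sensitized, 1024 to 1144 at 30 min, 790.2 to 1448 at 60 min and 821 to 1165 at 120 min. The lowest value, in Sensitized replicate 3, was in the library with the lowest summed replication genes. The highest was in 60 min replicate 1, not in 120 min replicate 3 (1165 CPM), which had the highest summed replication genes. At 120 min against Sensitized the median log2 fold change of these markers was -0.04 (4 of 10 above 0). Paneth cell markers (7 of 9 tested) ran from 4699 to 7029 CPM in PBS, 4131 to 4965 in Sensitized, 4724 to 8703 at 30 min, 7024 to 8236 at 60 min and 1907 to 3851 at 120 min. Villus enterocyte markers (16 of 16) ran from 9925 to 21723, 14722 to 21833, 11906 to 13110, 10587 to 17879 and 15987 to 25152 CPM in the same order. T cell and intraepithelial lymphocyte markers (14 of 14) ran from 191 to 229, 88.2 to 313, 47.5 to 298, 53.9 to 186 and 30.0 to 83.9 CPM, with Klrd1 at 0 in 60 min replicate 3. The highest lymphocyte sum was again in Sensitized replicate 3 and the lowest in 120 min replicate 3, the libraries with the lowest and highest summed replication genes. The pairing did not hold throughout: 30 min replicate 1 had 298 CPM of lymphocyte markers and ranked 4 of 15 for replication genes by mean log2 CPM. By that measure the lowest library for replication genes was 60 min replicate 3 (3.84), not Sensitized replicate 3 (3.87). For lymphocyte markers the highest library by mean log2 CPM was 30 min replicate 1 (3.47), just above Sensitized replicate 3 (3.46). B and plasma cell markers (9 of 9) ran from 619 to 2042 CPM in PBS, 780.4 to 1122 in Sensitized, 463 to 1595 at 30 min, 818 to 1188 at 60 min and 105 to 361 at 120 min, and the lowest value was again in 120 min replicate 3. Macrophage and dendritic cell markers (9 of 9) ran from 60.4 to 85.1, 41.3 to 62.0, 42.3 to 120.2, 45.1 to 96.0 and 47.1 to 63.2 CPM, and erythroid markers (5 of 6 tested) from 74.3 to 169, 125 to 179, 18.9 to 54.3, 14.2 to 139 and 77.5 to 87.3 CPM, in the same order of groups. The part of these cell types in the replication gene values was not tested.

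**Figure D5:**
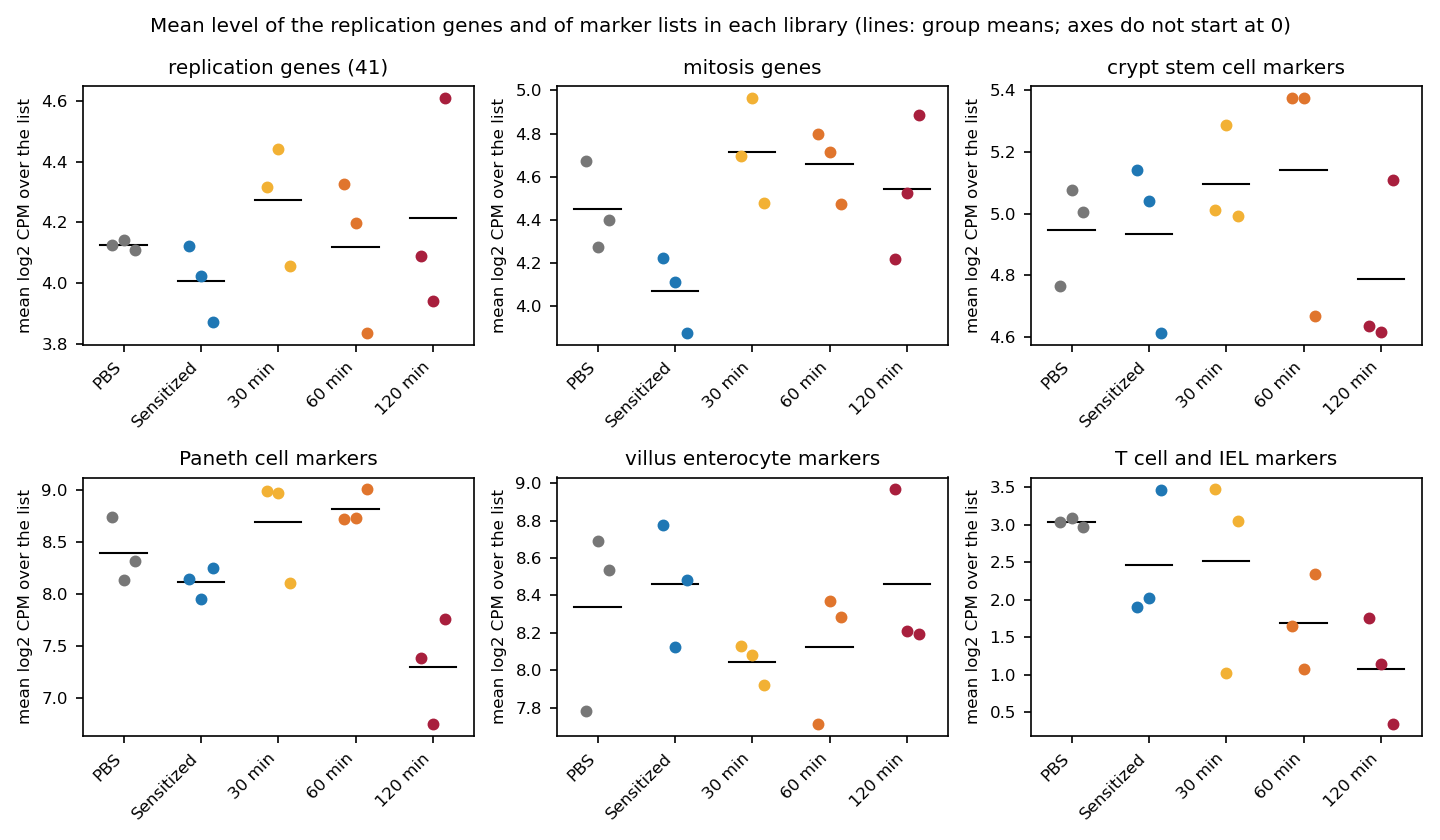
Each point is a library's mean log2 CPM over a gene list (vertical axes, which do not start at 0) by group, with lines for group means, for the replication genes and 5 other lists. Replication genes and mitosis genes are both lowest in Sensitized replicate 3 among the unchallenged libraries, and Paneth cell markers are lowest at 120 min (6.75 to 7.76).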

How the data were processed

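Polyadenylated RNA of 15 jejunal epithelial isolates was sequenced with paired reads of 151 bp. The submitters' processing notes name cutadapt 1.18, Salmon 1.2.1 and mm10, and the labels give Salmon as the quantifier; no source used here names the annotation release or a strand setting. The files deposited by the authors hold, per the file headers, for each of 139058 transcripts an estimated count, which need not be whole, a TPM value (the share of transcripts, scaled for length) and the length and effective length in bases. Transcripts were summed to 52844 genes with GENCODE M21 (137943 matched without versions; the 1115 unmatched held 0.374% to 0.602% of a library) and the estimated counts rounded. In R 4.3.3, edgeR 4.0.16 with TMM scaling and filterByExpr (14968 genes) fitted all 15 libraries with a mean per group (estimateDisp and glmQLFit, robust; 10 residual degrees of freedom; common biological coefficient of variation 0.26), and glmQLFTest p-values were adjusted by Benjamini-Hochberg over all genes at 0.05. SE is the fold change over the root of F. Log2 CPM used a prior count of 2. TPM served only for levels within a library. Alternatives were DESeq2 1.42.0, limma-voom (limma 3.58.1), DESeq2 size factors, 2 other filters, no mitochondrial genes, length offsets, PBS as the control, only the groups compared, each library left out, and, chosen after seeing the data, 3 libraries that stood apart left out. The fits were also run on simulated data, with 1 biological coefficient of variation for all genes, smaller than that of these data. That run does not show how the fits perform at the spread seen here. No 2 libraries of the same group agreed within sampling noise.

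The replication genes and the other lists were chosen with earlier results of these data known. Values in every library are given for 10 members fixed by role and for the 4 members with the smallest p in each comparison. Of the pathway, S-phase regulator and mitosis lists, genes called or some of those with the smallest p are named. Cell type markers that were called are counted but not named. Members with the highest or lowest level or spread, and some of those against the median, are also named. Cdkn1a, Klrd1 and Col1a1 were picked after their values were seen. The other lists are pathway genes, S-phase regulators, mitosis genes and cell type markers.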

Additional observations from a re-analysis of the deposited data

How the results depend on the processing

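Across 9 alternatives, 1 added after seeing the data (without 30 min replicate 1, 60 min replicate 3 and 120 min replicate 3) and 15 fits that left out 1 library, 0 of the 41 genes were called, with these exceptions: 1 gene (Fen1) at 120 min against Sensitized and 1 gene (Pold1) at 120 min against 60 min by DESeq2, 1 gene (Fen1) at 120 min against Sensitized without 120 min replicate 2 (range 0 to 1), and 4 genes at 120 min against 60 min without 60 min replicate 1 (range 0 to 4). Leaving out 1 library moved the median log2 fold change of the 41 genes from -0.21 to -0.08 for Sensitized against PBS, from 0.19 to 0.41 at 30 min, from 0.07 to 0.30 at 60 min and from 0.08 to 0.40 at 120 min against Sensitized. Between times it ran from -0.20 to -0.00 (60 against 30 min, the second without 30 min replicate 2), from -0.19 (without 120 min replicate 3) to 0.18 (120 against 60 min) and from -0.29 (without 120 min replicate 3) to 0.10 (120 against 30 min). Without the 3 libraries that stood apart, the median at 120 against 60 min was -0.27.

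The count of all genes called depended on the tool and the libraries, in the order Sensitized against PBS, 30, 60 and 120 min against Sensitized, 60 against 30 min, 120 against 60 min, 120 against 30 min and all groups. DESeq2 called 6, 6, 189, 845, 5, 950, 836 and 1121 genes. Without a low-count filter 49 were called at 60 min, 279 at 120 against 60 min and 380 over all groups; with length offsets 0, 34, 46, 32 and 12 at 60 min, 120 min, 120 against 60 min, 120 against 30 min and over all groups; limma-voom called 34 over all groups. With PBS as the control, and with only the 2 groups compared, 0 were called at 60 min, and with only the 2 groups 0 at 120 against 60 min and 4 at 120 against 30 min. Without the 3 libraries that stood apart, 1, 110, 1, 0, 11 and 17 were called at 30 min, 120 min, 60 against 30 min, 120 against 60 min, 120 against 30 min and over all groups. Leaving out 1 library gave 0 to 1 genes at 30 min, 0 to 385 at 60 min (the highest without 60 min replicate 1), 7 to 344 at 120 min (without Sensitized replicate 3 and 60 min replicate 3), 0 to 1 at 60 against 30 min, 0 to 1151 at 120 against 60 min (without 120 min replicate 1 or 3 and 60 min replicate 1), 4 to 241 at 120 against 30 min (without 120 min replicate 1 and 60 min replicate 3) and 0 to 180 over all groups (without 120 min replicate 1 or 3 and 60 min replicate 1). Of single genes, Rfc5 reversed with length offsets (0.0915 in Sensitized against PBS and -0.0696 at 120 min); the cause was not tested. No paired analysis was possible because the replicate numbers are in accession order and pair nothing. The lowest counts behind a value were those of Pole2, Gins3, Gins1 and Orc1 (12, 17, 24 and 26 in their lowest libraries), and 3 libraries a group limit what could be called.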
